A study of Homo sapiens with 12 samples.

Results

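The mitochondrial ribosomal proteins are the nuclear-encoded proteins of the ribosome inside mitochondria. They were taken here as every gene symbol that starts with MRPL or MRPS followed by a number and that reached 1 CPM (counts scaled to a common library total of 1000000) in at least 4 of 12 libraries. The pattern matched 76 of the 18969 genes listed, and all 76 passed the limit in 12 of 12 libraries. The lowest value by library total was 18.8 CPM, in MRPS14. By symbol there were 47 MRPL genes, named for the large subunit, and 29 MRPS genes, named for the small subunit. Membership and the counts by subunit below go by these symbols, which need not match the place of each protein, in the ribosome or outside it.

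RNA was sequenced from HCT116, an established human colorectal carcinoma line, grown in RPMI-1640 medium with fetal bovine serum, with 4 libraries in each of 3 groups. The 0 h group is labelled only by that time, and the labels do not say whether it was collected before methionine restriction or at its end. The DMSO recovery group spent 24 h in medium lacking methionine with the vehicle DMSO and then 24 h in complete medium. The UNC0642 recovery group had the same course, with UNC0642 present during restriction and absent from the recovery medium. UNC0642 is an inhibitor of the histone H3 lysine methyltransferases G9a and GLP. The labels used here do not state its concentration. The labels do not say whether the replicates were separate cultures, so the p-values measure the spread between these libraries, which may be technical.

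The mitochondrial ribosome translates the few messages encoded by mitochondrial DNA, which specify core subunits of the respiratory chain and of ATP synthase. Its ribosomal RNAs come from the mitochondrial genome, whereas its proteins are made in the cytosol and imported. Some of these proteins descend from bacterial ribosomal proteins, and others were added during mitochondrial evolution. Methionine is the source of S-adenosylmethionine, the methyl donor of histone and RNA methyltransferases.

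Library totals ranged from 14658082 to 20179847 counts, and single members had 277 to 5433 counts in a library. The members together held 0.585% to 0.649% of the counts. Of the 7 epithelial markers looked for, VIL1 was at 0 in 7 libraries and at most at 0.351 CPM, whereas EPCAM, KRT8, KRT18, KRT19, CDH1 and CDX2 were detected in every library. The 7 summed to 4814 to 4916 CPM at 0 h, 5640 to 5761 CPM after DMSO recovery and 5683 to 5845 CPM after UNC0642 recovery. Every recovery library was thus above every 0 h library in this sum, and its part in the differences from 0 h was not tested. Most of the sum was KRT8, KRT18 and KRT19, with medians of 2889, 1359 and 1024 CPM over the 12 libraries. The single markers were not compared between groups. The 11 markers of blood, fibroblasts and endothelium summed to 20.7 to 43.3 CPM at 0 h, 27.9 to 36.5 CPM after DMSO recovery and 28.8 to 37.3 CPM after UNC0642 recovery. Most of that was COL1A1, at 18.9 to 31.6 CPM, while PTPRC was at 0 in 8 libraries and CDH5 in 11. COL1A2 was above 1 CPM in 6 libraries, of which 3 were at 0 h, 1 was a DMSO library and 2 were UNC0642 libraries. Its part in the results was not tested beyond leaving those libraries out. The median difference between a gene's length and its effective length, a quantity that depends on fragment length, separated the libraries into short-gap and long-gap classes. The gap was 101 to 106 bases in 5 libraries and 120 to 127 bases in 7, and each group held libraries of both classes.

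Levels are first given per transcript length, as FPKM (fragments scaled to transcript length and to library size), since longer transcripts give more fragments at the same abundance. Over the 12 libraries the median member had 60.2 FPKM, against 10.1 FPKM for the median of 12741 genes tested and 1442 FPKM for the median cytosolic ribosomal protein gene. MRPL12, a protein of the stalk that contacts translation factors and that also binds the mitochondrial RNA polymerase, was the highest at 301.2 ± 21 FPKM (SD, n = 12). This SD includes the differences between groups: at 0 h alone MRPL12 had 328.4 ± 7.47 FPKM (SD, n = 4). MRPL51 followed at 235 ± 16.4 FPKM, then MRPL41 at 188.4 ± 7.89, MRPS34 at 178.9 ± 8.34 and MRPL20 at 174.7 ± 12.4 FPKM. At 0 h these last 3 were level, at 189.3 ± 11, 188.8 ± 4.42 and 188.9 ± 4.91 FPKM (SD, n = 4). MRPS14 was the lowest at 11.2 ± 0.923 FPKM, below MRPL19 at 13.7 ± 0.684, MRPL22 at 14.3 ± 1.15, MRPS25 at 17.4 ± 1.07 and MRPS36 at 18.7 ± 2.07 FPKM.

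The highest member was thus 27.0-fold above the lowest, and 56 of the 76 lay within 2-fold of their median. MRPL and MRPS genes had similar medians, at 62.1 and 59.1 FPKM. Most neighbours in the order were not separated: the higher of 2 adjacent members exceeded the next within every library in 8 of 75 adjacent pairs. In 4 of these pairs the lowest library of the higher member also lay above the highest library of the next. MRPL12 and MRPL51 were separated from the member after them in both ways, and MRPL41, MRPS34 and MRPL20 in neither. Many ribosomal protein genes have processed pseudogenes of near-identical sequence, and the way the counting shared reads between such copies is not described in the sources used here. The levels are therefore those of the deposited assignment.

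**Figure D1:**
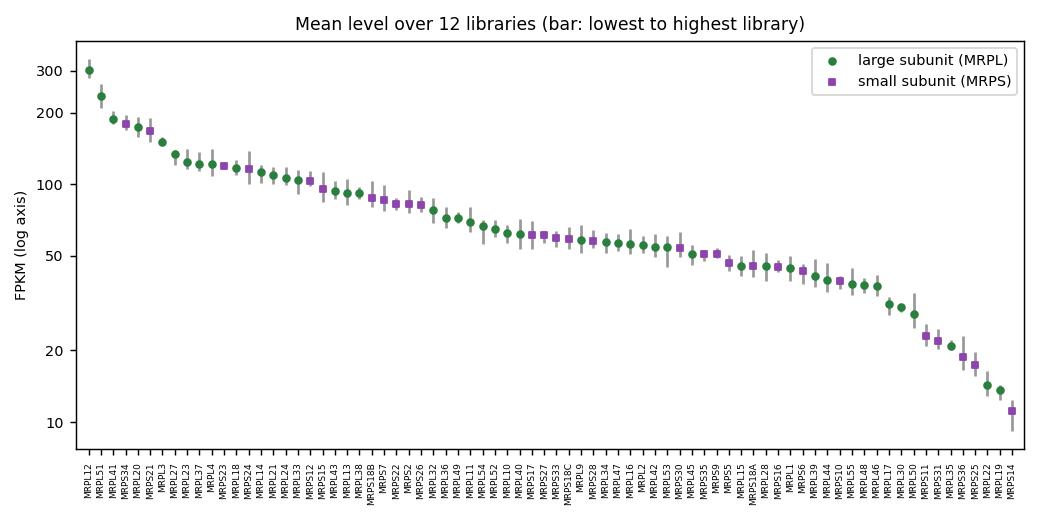
Mean FPKM of each of the 76 genes over 12 libraries, on a log axis, ordered from highest to lowest. Circles are MRPL genes and squares MRPS genes, by symbol. Bars run from the lowest to the highest library. MRPL12 stands at 301.2 FPKM and MRPS14 at 11.2 FPKM, and most bars overlap those of their neighbours.

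The first comparison asks how transcripts after 24 h of recovery in DMSO differed from those at 0 h. Mitochondrial ribosomal protein genes were lower after recovery: 46 of 76 fell at an adjusted p under 0.05, none rose and 30 were not called. Among all genes tested, 21.7% fell and 22.4% rose by the same rule. The median log2 fold change of the members was -0.13, a change of -8.84%, beside 0.01 for all genes tested, and 71 of the 76 estimates were below 0. The 4 DMSO libraries all lay below the 4 libraries at 0 h for 37 members, a pattern seen in 19.0% of all genes, and above them for none, against 19.3% of all genes. The falls were small, with the largest at -0.35.

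These counts moved with the scaling. Scaling by library totals alone gave 32 lower and 0 higher, with a median of -0.08 and 60 of 76 estimates below 0, and that scaling also shifted the calls over all 12741 genes to 1838 lower (14.4%) and 3825 higher (30%). A correction of each library for transcript length and GC content gave 36 lower and 3 higher (MRPS28, MRPS31 and MRPS6), beside 26.9% and 19.2% of all genes, with a median of -0.09 and 55 estimates below 0. log2 FPKM values gave 30 lower and 2 higher (MRPS31 and MRPS6), beside 1709 and 3473 of 11371 genes, with a median of -0.07 and 56 estimates below 0. The short-gap libraries alone, with 2 libraries at 0 h and 1 DMSO library that is assumed to vary like the other groups, gave 18 lower and 1 higher (MRPS36), beside 10.6% of all genes in each direction. The long-gap libraries alone gave 41 lower and 0 higher, beside 18.3% and 17.6%. Without the libraries above 1 CPM of COL1A2, 35 members fell and 0 rose, beside 1563 and 1424 of 13070 genes. That fit kept 1 library at 0 h (replicate 4), which is assumed to vary like the other groups, 3 DMSO libraries and 2 UNC0642 libraries.

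Summed over the members, the level in CPM scaled by the trimmed mean of M-values (TMM, the scale of all CPM values from here on) was 6666.4, 6500.8, 6466.9 and 6647.8 in the 4 libraries at 0 h. After DMSO recovery it was 6026.6, 5866.4, 5926.2 and 5837.6. After UNC0642 recovery it was 6000.5, 5779.2, 5759.6 and 5930.2. Every recovery library lay below every 0 h library, and the 2 recovery groups overlapped each other. The DMSO mean was 90.01% and the UNC0642 mean 89.3% of the mean at 0 h. By library totals alone the sums were 6307.4 to 6488.2 at 0 h, 5900.1 to 6076.0 after DMSO and 5854.5 to 6080.1 after UNC0642, again without overlap between 0 h and recovery. In bulk RNA, less message per cell and fewer cells that hold it cannot be told apart.

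**Figure D2:**
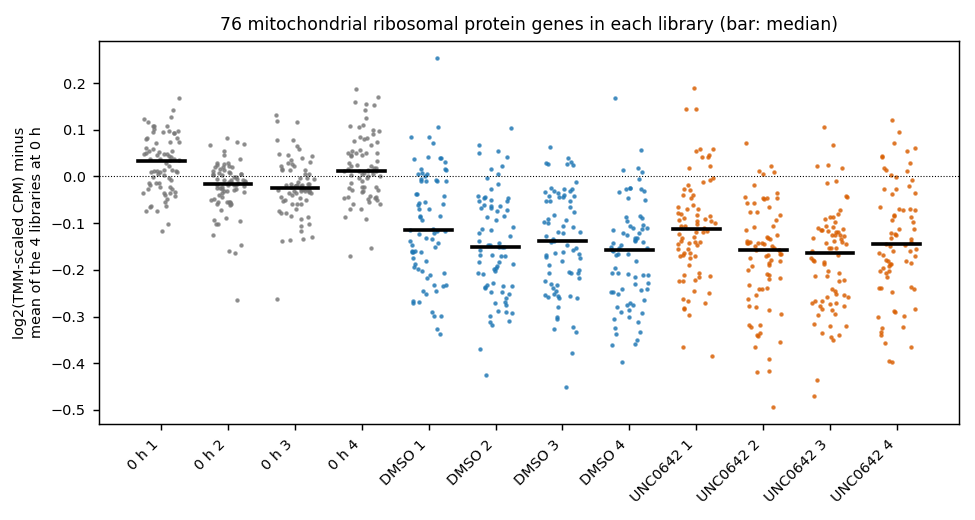
Each point is 1 of the 76 genes in 1 library, as log2 TMM-scaled CPM minus that gene's mean over the 4 libraries at 0 h; the bar is the median of the library. Medians lie between -0.03 and 0.03 at 0 h, between -0.16 and -0.12 after DMSO recovery and between -0.17 and -0.11 after UNC0642 recovery.

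The largest fall after DMSO recovery was that of MRPL50, a large subunit protein with no bacterial counterpart. MRPL50 measured 32.2, 29.03, 29.8 and 29.7 CPM at 0 h and 26.5, 22.5, 22.1 and 23.7 CPM after DMSO recovery. The groups did not overlap, and the fall was -0.35 ± 0.06 on the log2 scale (SE, adjusted p = 4.18e-05).

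MRPS24 is a small subunit protein. MRPS24 measured 81.3, 72.7, 81.7 and 81.9 CPM at 0 h and 64.8, 63.6, 64.4 and 61.8 CPM after DMSO recovery. Replicate 2 was the low library at 0 h and still lay above every DMSO library (log2 fold change -0.32 ± 0.04, adjusted p = 4.20e-07).

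MRPS7, the counterpart of the bacterial protein that initiates assembly of the small subunit head, measured 131.4, 129.0, 126.8 and 121.0 CPM at 0 h. After DMSO recovery MRPS7 was at 105.2, 98.2, 101.3 and 103.7 CPM. The groups were separated, with a log2 fold change of -0.32 ± 0.03 (adjusted p = 5.23e-09). Next in size were MRPL4 (-0.30), MRPL9 (-0.30), MRPL11 (-0.28), MRPL12 (-0.27) and MRPL40 (-0.27), and in all 5 the DMSO libraries lay below those at 0 h.

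All 3 stalk genes fell. MRPL12 had the smallest adjusted p of the members: it measured 307.9, 305.7, 298.1 and 307.3 CPM at 0 h and 252.9, 249.2, 255.6 and 249.9 CPM after DMSO recovery, a log2 fold change of -0.27 ± 0.03 (adjusted p = 4.54e-10). MRPL11 was at 120.3, 113.9, 107.6 and 122.0 CPM at 0 h and at 98.5, 98.5, 92.6 and 91.6 CPM after DMSO recovery. MRPL10, which anchors MRPL12 on the particle, fell by 0.19 (adjusted p = 0.00012). None of the 3 overlapped between the groups.

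Around the exit of the peptide tunnel, MRPL23 (-0.15, adjusted p = 0.00197), MRPL24 (-0.11, adjusted p = 0.0214) and MRPL45 (-0.15, adjusted p = 0.00689) fell. MRPL45 ties the ribosome to the inner membrane, and its DMSO and 0 h libraries overlapped. The call of MRPL45 was lost without DMSO replicate 2 (-0.11) and in 4 of 28 alternatives in all. That of MRPL24 was lost without 0 h replicate 1 (-0.08), 0 h replicate 4 (-0.11) or DMSO replicate 4 (-0.10) and in 8 in all, by library totals (-0.06) and with the length and GC correction (-0.04) among them. MRPL23 lost its call in 3. MRPL3, next to the peptidyl transferase centre, fell by 0.13 (adjusted p = 7.34e-05). MRPL44, a protein with a ribonuclease III-like fold, fell by 0.26 (adjusted p = 1.17e-05). MRPL3 and MRPL44 each lost the call in 1 alternative.

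In the small subunit, MRPS12 of the decoding centre fell by 0.17 (adjusted p = 0.000152), MRPS2 by 0.24 (adjusted p = 2.35e-06) and MRPS16 by 0.12 (adjusted p = 0.00299). The call of MRPS12 was lost in 2 alternatives and that of MRPS16 in 4. MRPS34, a protein specific to mitochondria, fell by 0.18 (adjusted p = 2.03e-05). MRPS22 and MRPS27, also specific to mitochondria, were not called, at -0.02 for both (adjusted p = 0.777 and 0.604). MRPS22 measured 87.7, 87.0, 83.4 and 83.6 CPM at 0 h and 88.0, 81.6, 84.7 and 83.9 CPM after DMSO recovery, so the groups overlapped throughout. The estimate of MRPS22 turned positive under 4 of the alternatives and that of MRPS27 under 3.

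MRPS18A, MRPS18B and MRPS18C are paralogs that descend from a single bacterial protein. MRPS18A fell by 0.24 (adjusted p = 0.000493) and MRPS18B by 0.22 (adjusted p = 1.8e-05), whereas MRPS18C was at -0.10 ± 0.05 (adjusted p = 0.109) and passed in 3 alternatives, without 0 h replicate 3 or DMSO replicate 1 (-0.14 for both) and in the long-gap libraries alone (-0.18). The difference between the paralogs was not tested.

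By symbol, 31 of 47 MRPL genes fell (median -0.14) and 15 of 29 MRPS genes (median -0.10), beside 21.7% of all genes. Numbers up to MRPL36 and MRPS21 follow those of bacterial counterparts. Of these 44 members 29 fell (median -0.15), against 17 of the 32 with higher numbers (median -0.10). This split goes by number alone, and some members with higher numbers may also have a bacterial counterpart. The shorter 38 members had 22 falls (median -0.15) and the longer 38 had 24 (median -0.13). No difference between these subgroups was tested.

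**Figure D3:**
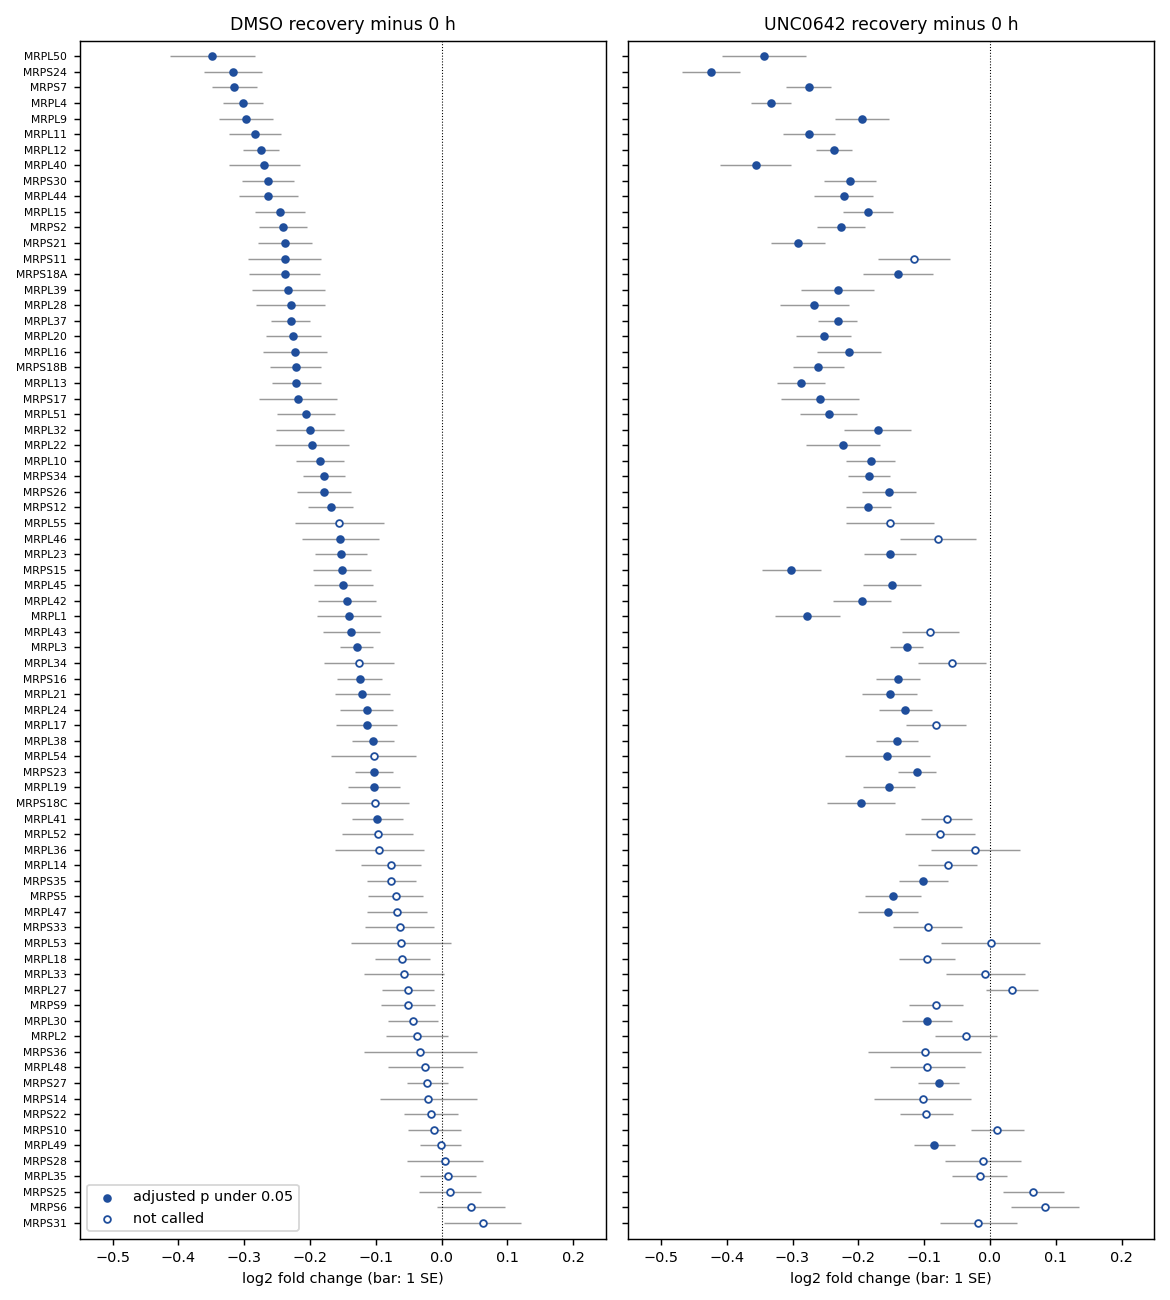
log2 fold change of each of the 76 genes after DMSO recovery (left) and UNC0642 recovery (right) relative to 0 h, with bars of 1 SE, both panels in the order of the left one; filled points passed an adjusted p of 0.05. The panels share the 4 libraries at 0 h; 46 points are filled on the left and 49 on the right, all below 0.

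The second comparison sets UNC0642 recovery against the same 0 h libraries, so its values are not independent of the first. Here 49 of 76 members fell, none rose and 27 were not called, beside 23.6% of all genes falling and 23.4% rising. The median was -0.15, a change of -9.90%, against 0.01 for all genes tested. The 4 UNC0642 libraries lay below the 4 at 0 h for 39 members (20.1% of all genes) and above them for none (20.1% of all genes). By library totals alone, 33 fell and 3 rose (MRPL27, MRPS25 and MRPS6), beside 15.4% and 32.0% of all genes. With the correction for length and GC, 37 fell and 4 rose (MRPL27, MRPL33, MRPS28 and MRPS6), beside 27.7% and 20.9%. log2 FPKM values gave 37 falls and 2 rises (MRPL27 and MRPS6), beside 16.6% and 31.8%. The short-gap libraries alone gave 33 falls (16.2% of all genes), the long-gap libraries alone 46 (17.8%) and the libraries without COL1A2 35 (11.6%), with 0 rises in each (15.5%, 16.6% and 10.1%). The last of these fits again rests on 0 h replicate 4 alone.

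MRPS24 fell most. Its UNC0642 libraries were at 60.8, 56.3, 57.2 and 61.9 CPM, all below the 72.7 to 81.9 CPM of the 0 h libraries, with a log2 fold change of -0.42 ± 0.04 (adjusted p = 1.26e-09). MRPL40 measured 46.3, 46.1, 49.4 and 45.3 CPM at 0 h and 38.8, 35.04, 36.7 and 35.5 CPM after UNC0642 recovery. MRPL40 was thus lower in every UNC0642 library, by 0.36 ± 0.05 on the log2 scale (adjusted p = 2e-06).

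MRPL50 was at 23.4, 26.1, 22.3 and 23.4 CPM after UNC0642 recovery, below all of its 0 h values, and fell by 0.34 (adjusted p = 4.28e-05). MRPL4 (-0.33), MRPS15 (-0.30), MRPS21 (-0.29), MRPL13 (-0.29) and MRPL1 (-0.28) followed, none overlapping with 0 h. All 5 carry the number of a bacterial counterpart.

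The other genes named for their roles were as follows. The stalk genes MRPL12 (-0.24), MRPL11 (-0.27) and MRPL10 (-0.18) fell, and so did MRPL3 (-0.13), MRPL44 (-0.22), MRPL45 (-0.15), MRPL23 (-0.15) and MRPL24 (-0.13). In the small subunit MRPS2 (-0.23), MRPS7 (-0.28), MRPS12 (-0.18), MRPS16 (-0.14), MRPS34 (-0.18) and MRPS27 (-0.08, adjusted p = 0.0389) fell, and MRPS22 did not pass the threshold (-0.10, adjusted p = 0.0501). All 3 MRPS18 paralogs passed: MRPS18A at -0.14, MRPS18B at -0.26 and MRPS18C at -0.20. Single libraries decided some of these calls. MRPS18A lost its call without 0 h replicate 4 (-0.09) or any of UNC0642 replicates 2, 3 and 4 (-0.14 to -0.12), and MRPL24 without 0 h replicate 1 or UNC0642 replicate 3 (-0.10 for both). Over all 28 alternatives MRPS27 lost its call in 12, MRPS18A in 8, MRPL24 in 7, MRPL23 in 4, MRPL45 in 3 and MRPS18C in 2. MRPS27 lost it in 7 of 12 omissions, of 0 h replicates 1, 2 and 3, DMSO replicate 1 and UNC0642 replicates 1, 2 and 3 (-0.08 to -0.06). MRPS22 passed without 0 h replicate 3, 0 h replicate 4 (-0.11 for both) or UNC0642 replicate 1 (-0.14). Over all 28 alternatives MRPS22 passed in 9. By symbol, 31 of 47 MRPL genes and 18 of 29 MRPS genes fell (23.6% of all genes), with medians of -0.15 and -0.14.

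Across 29 ways of fitting the data, the reported fit and the single-library omissions included, 16 of 76 members were called lower after DMSO recovery in every setting, beside 7.99% of the 11315 genes tested in all of them. These were MRPL4, MRPL9, MRPL10, MRPL11, MRPL12, MRPL15, MRPL16, MRPL37, MRPL51, MRPS2, MRPS7, MRPS11, MRPS21, MRPS24, MRPS30 and MRPS34. After UNC0642 recovery 23 of 76 members were, beside 10.1% of 11318 genes. MRPL50, the largest fall in DMSO, was not among the 16, since its call was lost in 1 setting. At the other end, MRPS6, MRPS25, MRPS10, MRPS31, MRPL35 and MRPS28 had estimates between -0.02 and 0.08 in both comparisons and were not called in either; these 6 were picked after their values were seen. MRPS6 measured 36.9, 34.1, 39.7 and 35.8 CPM at 0 h, 37.6, 38.01, 37.3 and 38.1 CPM after DMSO and 40.4, 38.4, 37.0 and 39.1 CPM after UNC0642, with overlap among all 3 groups.

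The third comparison asks what UNC0642 during restriction changed relative to vehicle, with both groups recovered for the same time. It shares the DMSO libraries with the first. MRPS15, a small subunit protein with a bacterial counterpart, was the single member called (1 lower, 0 higher), beside 2.53% of all genes lower and 2.06% higher. MRPS15 measured 85.5, 79.0, 75.7 and 83.4 CPM after DMSO and 77.4, 70.9, 71.8 and 71.6 CPM after UNC0642. UNC0642 replicate 1 lay above the third DMSO library, so the groups overlapped, and the difference was -0.15 ± 0.04 (adjusted p = 0.0424).

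That call was kept in 17 of 28 alternatives and lost in 11. It was lost by library totals alone, on log2 FPKM, within either gap class alone, without the COL1A2 libraries, and when any of DMSO replicates 1, 2 and 4 or UNC0642 replicates 2, 3 and 4 was left out. The estimate ranged from -0.20 to -0.10 over all settings. At an unadjusted p under 0.05 there were 7 of 76 members, beside 17.2% of all genes: MRPS15, MRPL1, MRPS24 and MRPL49 were lower after UNC0642, and MRPS11, MRPL9 and MRPL27 were higher.

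For the other 75 members no difference between the 2 recovery groups was called. Their estimates ran from -0.14 (MRPL1) to 0.12 (MRPS11), and the median over all 76 was -0.01. The 95% intervals of these 75 reached from -0.23 to 0.23 at their extremes and included 0 for 68. MRPL49, which measured 147.0, 140.9, 149.2 and 147.2 CPM after DMSO and 138.1, 138.7, 135.9 and 139.1 CPM after UNC0642, was the only member with every UNC0642 library below every DMSO library, a pattern seen in 5.41% of all genes. MRPL49 shares exon sequence with FAU and SYVN1 on the opposite strand, and its difference was not called (-0.08, adjusted p = 0.122). MRPL9, MRPS11 and MRPL27 had every UNC0642 library above every DMSO library (5.04% of all genes), at 0.10, 0.12 and 0.09, and none was called (adjusted p = 0.169, 0.224 and 0.249).

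**Figure D4:**
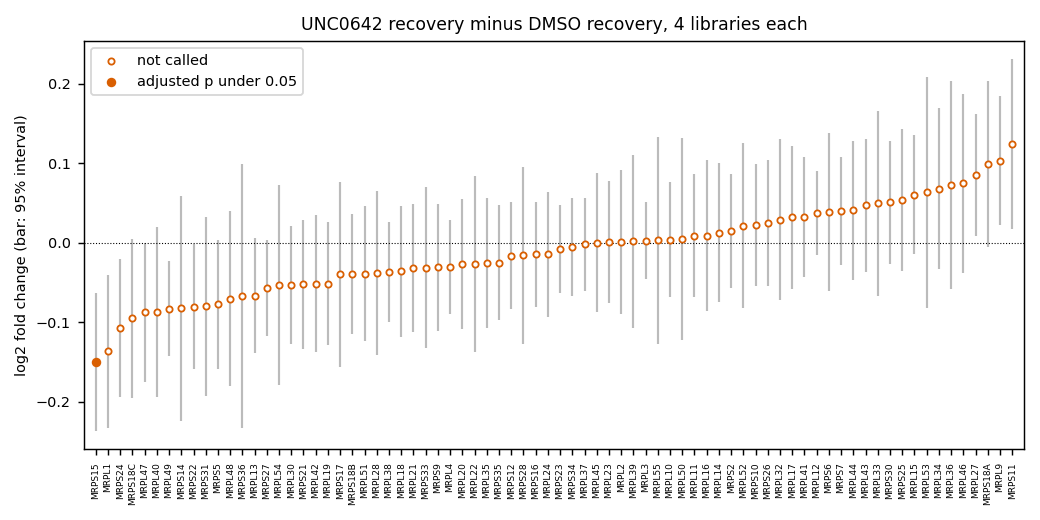
log2 fold change of UNC0642 recovery over DMSO recovery for each of the 76 genes, ordered by size, with 95% intervals. Estimates run from -0.15 (MRPS15, the filled point) to 0.12 (MRPS11), and 68 of the 76 intervals include 0.

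Promoter sequence was taken from RefSeq (GRCh38.p14) for the first start listed for each gene, from 250 bases before to 50 bases after the start, and was found for 67 of the 76 members. The letters CCGGAAG, the core bound by ETS factors such as GABP, stood on either strand in 28 of 67 members (41.8%), against 14.2% of 15843 protein-coding genes in the same window. The letters AAGATGGC, bound by the zinc finger factor YY1, were in 20 members (29.9%) against 3.91%. The palindromic consensus of the nuclear respiratory factor NRF1 was in 1 member (1.49%) against 1.75%, and a looser form with its middle pair of bases left free was in 8 (11.9%) against 12%. A match describes the letters in the window and does not show binding.

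The AAGATGGC matches sat mostly just past the start. Of 20 sites in 19 members that had 30 bases of sequence around them, 14 began 7 to 24 bases after the start, and in 11 of these the ATG inside the motif was an annotated start codon in GENCODE v29. In the 250 bases before the start alone, 5 of 67 members held the letters (7.46% against 1.39%). The following 30-base stretches show this position in the 3 members with the largest falls after DMSO recovery and in MRPS27, which was not called there. Capitals mark AAGATGGC, and each is written 5′ to 3′ on the gene's strand.
MRPL50 (chr9:101398577-101398606, minus strand): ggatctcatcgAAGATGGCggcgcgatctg
MRPS24 (chr7:43869480-43869509, minus strand): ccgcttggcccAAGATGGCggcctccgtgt
MRPS7 (chr17:75261887-75261916, plus strand): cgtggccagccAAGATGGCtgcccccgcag
MRPS27 (chr5:72320206-72320235, minus strand): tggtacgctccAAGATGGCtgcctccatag

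The CCGGAAG matches sat mostly before the start. Of 37 sites in the 28 members, 26 began within 100 bases before the start and 6 after it, and in the 250 bases before the start alone 22 of 67 members held one (32.8% against 11.8%). The stretches below show the site of MRPL40, which fell in both comparisons with 0 h, a pair of sites in MRPS34, among the highest members per length, and a pair on opposite strands in MRPS22, which was called in neither. Capitals mark CCGGAAG or its reverse complement CTTCCGG.
MRPL40 (chr22:19432523-19432552, plus strand): ggggcgcacgcCCGGAAGcggcgagggtag
MRPS34 (chr16:1773145-1773174, minus strand): gacaccggcctCTTCCGGtgaCTTCCGGcc
MRPS22 (chr3:139343896-139343925, plus strand): tctataagggcCCGGAAGaCTTCCGGccct

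Members with and without these letters both fell. After DMSO recovery 15 of 20 members with AAGATGGC fell (median -0.18) and 26 of 47 without it (median -0.11). With CCGGAAG 15 of 28 fell (median -0.10), and without it 26 of 39 (median -0.15). Of all genes tested, 21.7% fell in this comparison. The differences between members with and without the letters were not tested.

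Proteins of the particle that carry other names are the products of 7 further genes. Of these 5 fell after DMSO recovery and 4 after UNC0642 recovery, and none rose. Among all genes tested, 21.7% fell and 22.4% rose after DMSO recovery, and 23.6% fell and 23.4% rose after UNC0642 recovery. These shares apply to the counts of the reported fit in each list that follows. Counts from the short-gap libraries alone, or without the libraries above 1 CPM of COL1A2, go with the lower shares given above for those fits. GADD45GIP1, a large subunit protein first described as a nuclear partner of GADD45, measured 126.0, 118.9, 118.1 and 114.2 CPM at 0 h and 87.8, 92.1, 93.5 and 92.5 CPM after DMSO recovery. Its fall of 0.38 (adjusted p = 3.11e-10) was larger in size than that of any MRPL or MRPS member in the same comparison, and its value after UNC0642 was -0.37 (adjusted p = 7.07e-10). ICT1, a peptidyl-tRNA hydrolase built into the large subunit, was at -0.29 and -0.30 (adjusted p = 6.02e-06 and 2.44e-06).

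Of 24 factors that assemble the mitochondrial ribosome or modify its RNA, 14 fell and 1 rose in each comparison with 0 h, with a median of -0.13 in both. The RNA helicase DDX28 was at 25.4 ± 2.00 CPM at 0 h, 18.4 ± 1.40 after DMSO and 17.5 ± 0.619 after UNC0642 (SD, n = 4), or -0.46 and -0.53 on the log2 scale (adjusted p = 1.95e-06 and 1.23e-07). RBFA, which matures the small subunit RNA, was at -0.41 and -0.50 (adjusted p = 1.52e-06 and 3.41e-08). NGRN was the member that rose, at 0.16 and 0.18 (adjusted p = 0.000236 and 5.05e-05). In the short-gap libraries alone 8 of the 24 fell after DMSO recovery.

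Among 16 factors of mitochondrial translation, 7 fell after DMSO and 10 after UNC0642, and none rose. TACO1, an activator of COX1 translation, was at -0.40 and -0.39 (adjusted p = 4.67e-09 and 4.46e-09). C14orf156, the symbol the files use for the messenger RNA stabilising protein SLIRP, was at -0.27 and -0.30 (adjusted p = 1.25e-06 and 2.85e-07). The GTPase GUF1 was at -0.22 and -0.37 (adjusted p = 1.64e-05 and 1.35e-09). GUF1 and LRPPRC, the partner of SLIRP, were also lower after UNC0642 than after DMSO, at -0.15 (adjusted p = 0.017) and -0.09 (adjusted p = 0.0323). GUF1 measured 71.0, 69.2, 73.2 and 70.8 CPM after DMSO and 65.4, 66.1, 63.6 and 61.3 CPM after UNC0642, without overlap. Neither call held within a gap class alone or without the COL1A2 libraries. The call of GUF1 was lost without DMSO replicate 3 (-0.13) or UNC0642 replicate 4 (-0.13), and that of LRPPRC without any of DMSO replicates 2, 3 and 4 or UNC0642 replicates 1, 3 and 4 (-0.09 to -0.07). The count after DMSO recovery was 3 of 16 in the short-gap libraries alone.

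Of 9 genes of mitochondrial DNA transcription and replication, 7 fell and 1 rose after DMSO, and 6 fell and 1 rose after UNC0642. TFB2M, a transcription initiation factor, was at -0.32 after DMSO and -0.26 after UNC0642 (adjusted p = 1.59e-06 and 3.76e-05), and the termination factor MTERF was at -0.27 and -0.37 (adjusted p = 0.00709 and 0.000275). SSBP1, the single-stranded DNA binding protein, was at -0.22 and -0.27 (adjusted p = 2.47e-05 and 1.12e-06). POLG, the catalytic subunit of the mitochondrial DNA polymerase, was the gene that rose, at 0.17 and 0.22 (adjusted p = 0.000395 and 1.18e-05), although with the length and GC correction the value after DMSO was 0.06 and was not called. In the short-gap libraries alone 3 of the 9 fell after DMSO recovery.

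Among nuclear regulators of mitochondrial genes, 9 of the 10 listed were tested, and PPARGC1A was too low. After DMSO 6 fell and 1 rose, and after UNC0642 7 fell and 1 rose. The subunits of the ETS factor GABP were among those that fell: GABPB2 was at -0.43 and -0.40 (adjusted p = 0.00701 and 0.0102) and GABPB1 at -0.35 and -0.38 (adjusted p = 2.25e-05 and 5.87e-06). PPARGC1B rose after DMSO, at 0.19 (adjusted p = 0.00839), with overlap between the groups, and ESRRA, its nuclear receptor partner, rose after UNC0642, at 0.11 (adjusted p = 0.0214). With the length and GC correction neither was called (0.03 and 0.02). PPARGC1B also lost its call without 0 h replicate 1 (0.15), ESRRA without 0 h replicate 2 or UNC0642 replicates 1 or 4 (0.09 to 0.10), and GABPB2 after UNC0642 without 0 h replicate 3 (-0.32). Without the libraries above 1 CPM of COL1A2, 3 regulators fell after UNC0642.

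Genes of the cytosolic ribosome fell in a larger share. Of 81 tested, 73 fell and 3 rose after DMSO (median -0.20), and 77 fell and 2 rose after UNC0642 (median -0.26). Between UNC0642 and DMSO 5 of the 81 were lower and none higher (median -0.05), a count that ran from 0 without the COL1A2 libraries to 27 with effective length offsets. Of all genes tested, 2.53% were lower and 2.06% higher after UNC0642 than after DMSO in the reported fit. The shares in the other fits are not given here. The difference between the 2 kinds of ribosome was not tested.

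**Figure D5:**
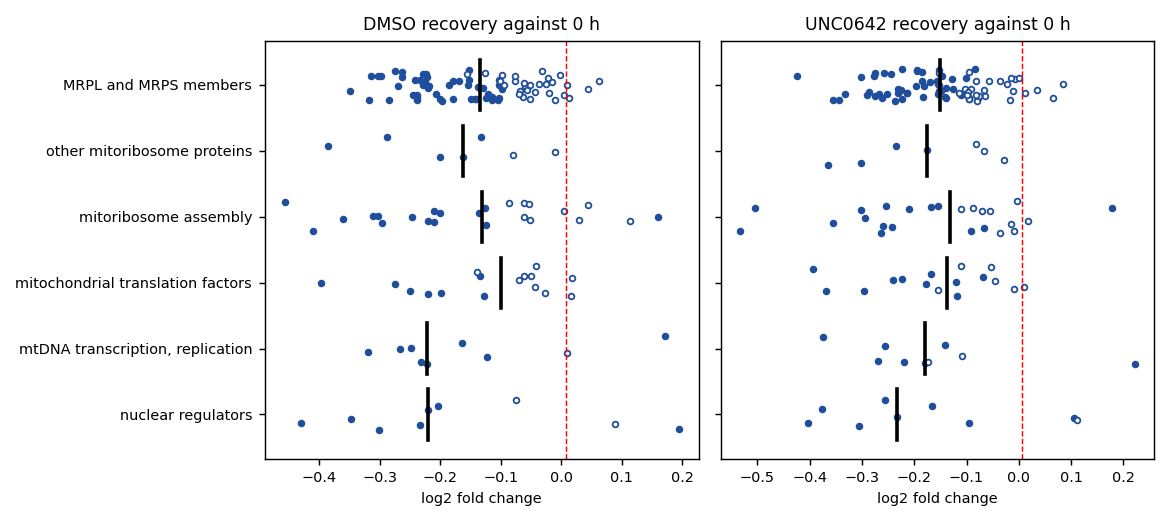
log2 fold change after DMSO recovery (left) and UNC0642 recovery (right) relative to 0 h for the 76 members and 5 related gene lists; filled points passed an adjusted p of 0.05, black bars are list medians and the red dashed line is the median of all genes tested. The medians of all 6 rows lie below the dashed line in both panels, and the panels share the 0 h libraries.

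The genes most like MRPL12 across the 12 libraries, by Pearson correlation of log2 CPM over all genes tested, were EEF1D (r = 0.988), PA2G4 (0.988), HNRNPF (0.987), BMP4 (0.987) and PPIA (0.986). MRPL12 was taken because it had the smallest adjusted p after DMSO recovery. The 12 points come from 3 groups and share the difference of MRPL12 between 0 h and recovery. Of the 100 genes most like MRPL12, 3 were other members, where the members are 76 of the 12741 genes tested.

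Exons of 17 members overlap, in GENCODE v29, a gene on the opposite strand that the files also list under its symbol or a RefSeq synonym. The sources used here do not say whether counting was done by strand. For these 17, among them MRPL9, MRPL19, MRPL51, MRPS2, MRPS7, MRPS12, MRPS22, MRPL49, MRPS18A and MRPS18C, reads of the 2 genes cannot be told apart where they overlap. A further 3 members, MRPL28, MRPS6 and MRPS16, overlap a listed gene on their own strand, which counting by strand would not separate.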

How the data were processed

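RNA was sequenced from 12 HCT116 libraries. Per the submitters' processing notes, RSEM 1.2.4 and Bowtie were used, with the build hg18. Per the file headers, the authors deposited per gene an expected count, FPKM, TPM, a length and an effective length. TPM was used only to check that each library summed to about 1000000. Each library's total of rounded counts was between 14658082 and 20179847. Expected counts were rounded and tested with edgeR 4.0.16 (R 4.3.3): filterByExpr kept 12741 of 18969 genes, TMM scaling was used, and the quasi-likelihood F-test was run on all 12 libraries in 1 fit with a mean per group. P-values were two-sided, Benjamini-Hochberg adjusted over all genes tested, and called under 0.05. The standard error is the log2 fold change divided by the square root of F, and 95% intervals are normal intervals from it. The biological coefficient of variation was 3.44%. In simulated data made from these libraries, on a like number of genes, the calls were checked before use. That simulation changed a small part of the genes, in the UNC0642 group alone. Its smallest fold was larger than the median fall of the members, so it does not cover falls of that size.

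The members and gene lists were chosen with earlier results of these data known. Genes were named by a rule: the 8 largest called changes per direction and comparison, genes with a fixed structural role, the 5 highest and 5 lowest levels, and from each list the 2 largest called changes per direction. Alternatives were RLE factors, library totals, 2 filters, unrounded counts, effective length offsets, a length and GC correction, a replicate block, limma 3.58.1 (voom, and log2 of FPKM plus 1), DESeq2 1.42.0, classes of libraries and the omission of each library. Overlaps were read from GENCODE v29, and no coordinate was converted from hg18. Messages encoded by mitochondrial DNA were not analysed here.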

Additional observations from a re-analysis of the deposited data

Results flagged for a closer look

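Within groups of 4, a member was looked at again where its highest or lowest library stood far from the other 3. Of 108 groups looked at 7 did so, and chance gives about 5%. Replicate 1 of UNC0642 recovery was the high library in 4 of them. It had 55.1 CPM of MRPL1 (the others 48.2 to 48.8), 100.4 CPM of MRPL11 (94.0 to 94.5), 77.4 CPM of MRPS15 (70.9 to 71.8) and 86.7 CPM of MRPS22 (76.8 to 78.5). At 0 h, replicate 3 was low for MRPL19 at 107.7 CPM (112.6 to 113.5), replicate 2 was low for MRPS24 at 72.7 CPM (81.3 to 81.9), and replicate 4 was high for MRPS18A at 59.0 CPM (50.3 to 51.4).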

How the results depend on the processing

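No alternative turned the median of the members positive in either comparison with 0 h. Below, the libraries without COL1A2 are those at or below 1 CPM of it. After DMSO recovery, library totals alone gave a median of -0.08, the length and GC correction -0.089 with 3 higher, log2 FPKM -0.07 with 30 lower and 2 higher, the short-gap libraries -0.105 with 18 lower and 1 higher, and the libraries without COL1A2 -0.18. After UNC0642 recovery, library totals gave -0.091 with 3 higher, the correction -0.10 with 4 higher, log2 FPKM -0.087 with 2 higher, the long-gap libraries -0.18, the short-gap libraries -0.12 and the libraries without COL1A2 -0.18. Leaving out 1 library at a time gave 38 to 47 lower and 0 higher (median -0.15 to -0.11) after DMSO, 42 to 50 lower and 0 to 1 higher (median -0.16 to -0.13) after UNC0642, and 0 to 2 lower (median -0.02 to 0.00) between the recovery groups; the 1 higher was MRPS25 without 0 h replicate 4. Between the recovery groups, totals, either gap class alone and the libraries without COL1A2 gave 0 lower, and the correction 2. The cause of these changes was not tested. A replicate block gave 46, 51 and 1 lower in the 3 comparisons. Deviations from the group means correlated between -0.19 and 0.12 for same-numbered libraries of different groups. For libraries with other numbers the range was -0.19 to 0.17. The labels do not say whether equal numbers mark libraries handled together, and these correlations cannot decide it.

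After DMSO 71 of 76 estimates were below 0, against 60 by totals, 55 with the correction, 56 on log2 FPKM and 63 in the short-gap libraries; after UNC0642 they were 64, 61, 64 and 65. Among the members named by the rule, these turned positive, none of them called there in the reported fit. After DMSO, MRPS22 was 0.037 by totals, 0.072 with the correction, 0.05 on log2 FPKM and 0.075 in the short-gap libraries. MRPS27 was 0.032 by totals, 0.037 on log2 FPKM and 0.067 without the COL1A2 libraries. MRPS18C was 0.006 with the correction and 0.053 in the short-gap libraries. After UNC0642, MRPS22 was 0.004 with the correction. Depth limits the lowest members: MRPS14 had as few as 277 counts.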
